A study of Mus musculus with 4 samples.

Results

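The cells described here are Pax7-holding myoblasts: cultured muscle stem cells that still carried Pax7 mRNA after 4 days of activation and had little or no mRNA of the differentiation genes Myog, Mymk and Mymx. They were chosen by their own readout, in the library of activated extraocular muscle (EOM) cells and the library of activated tibialis anterior (TA) cells. A cell entered with 10000 or more unique molecular identifiers (UMIs, counted mRNA molecules), at most 10% of them mitochondrial, and summed Myog, Mymk and Mymx UMIs at 2 or less per 10000. It was called Pax7-holding at 2 or more Pax7 UMIs per 10000 and Pax7-free at 0 Pax7 UMIs. There were 634 Pax7-holding cells, 497 from EOM and 137 from TA, of 23170 barcodes in the 4 libraries of the series. The Pax7-free cells numbered 310 in EOM and 206 in TA, and 1930 and 897 cells lay between the limits.

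All cells came from Tg:Pax7-nGFP mice of 2 to 4 months, which carry a green fluorescent protein reporter under Pax7 control, and were sorted by that fluorescence. Quiescent EOM and quiescent TA cells were taken for 10x Genomics sequencing directly after the sort. Activated EOM and activated TA cells were first grown on Matrigel in growth medium at 3% oxygen for 4 days. Each of the 4 groups was 1 library, and how many mice went into it is not given in the sources used here. Cells of 1 library are not replicates, so no difference below has a test, and each interval covers counting error only.

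Pax7 is the transcription factor that marks muscle stem cells and is needed for their upkeep. On activation these cells enter the cell cycle and make Myod1, the factor that commits them to muscle; Myog and the fusion genes Mymk and Mymx follow when they stop dividing and differentiate. Some cells in culture keep Pax7, lose Myod1 and leave the cycle, and are known as reserve cells. Notch signalling is known to hold muscle stem cells in the undifferentiated state: the receptors Notch1 and Notch3 act through Rbpj on targets such as Hes1, Hey1 and Heyl.

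Cells that were Pax7-holding by the rule made up 18.2% of undifferentiated EOM cells (exact Clopper-Pearson 95% interval 16.7 to 19.7). In TA they made up 11% (9.36 to 12.9). Pax7-holding cells had a median of 6 Pax7 UMIs in EOM and 7 in TA, or 2.54 and 2.63 per 10000. The limit cut a continuous range: the members nearest to it stood at 2.0014 per 10000 in EOM and 2.0074 in TA, and the nearest cells left out at 1.9985 and 1.9989. Within 0.2 per 10000 of the limit lay 99 cells above and 130 below in EOM, and 23 above and 49 below in TA. With UMIs summed over the cells of a class and scaled to the total of that class as CPM, Pax7 stood at 276 CPM in Pax7-holding EOM cells and 281 CPM in those of TA. In the quiescent libraries it stood at 288 CPM (EOM) and 391 CPM (TA). The rule sets a floor under the level of the members, so nothing is read from these values.

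The classes were deep. Median UMIs per cell were 22476 in Pax7-holding and 20376 in Pax7-free EOM cells, and 24193 and 23183 in TA. Median mitochondrial shares lay between 5.84% and 6.08%. Summed UMIs were 11545078 and 6510260 in EOM and 3483796 and 4842259 in TA. Activated EOM and activated TA had 12 cell barcodes in common. A barcode that also occurred in another library was carried by 3 Pax7-holding EOM cells and 0 Pax7-holding TA cells. The library's highest doublet scores fell on 27 Pax7-holding and 19 Pax7-free EOM cells, and on 1 and 5 TA cells. The summed level of 8 endothelial, 8 immune, 5 erythroid and 6 epithelial markers was at most 10.3 CPM in any of the 4 classes, that of 5 adipocyte markers at most 14.1 CPM and that of 7 glial markers at most 19.9 CPM.

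Every gene ratio below comes from a contrast that Pax7 itself defined, so all of them describe the cells chosen and none supports the choice. A gene was counted as higher or lower when its CPM in the classes differed 1.5-fold. Only genes reaching 20 CPM in one class or the other were counted. In EOM, 119 of 5319 genes were higher in Pax7-holding cells (2.24%) and 22 were lower (0.414%). In TA, 249 of 5359 genes were higher (4.65%) and 58 were lower (1.08%). These shares over all genes are the ones to set beside each count of list members below. With every cell first thinned to 10000 UMIs and the classes called again, 15 and 2 genes were counted in EOM and 76 and 25 in TA. With TMM factors in place of total counts the TA split was 170 higher and 92 lower. The classes of the muscles come from separate libraries. Over the 5020 genes measured in both the log2 ratios had a Pearson r of 0.662 and a Spearman rho of 0.593 across genes, which are not independent. There were 68 genes higher in both muscles (1.35%), which is 81.9% of the 83 EOM genes and 29.7% of the 229 TA genes among them. A further 10 were lower in both (0.199%), 52.6% of 19 and 28.6% of 35, and none went opposite ways (0.0%). Cells between the limits stood between the classes for 68 of the 68 shared higher genes in EOM and 67 of 68 in TA. These genes were chosen for a difference between the outer classes, and the share over all genes was not taken. Nothing is therefore read from this count.

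**Figure D1:**
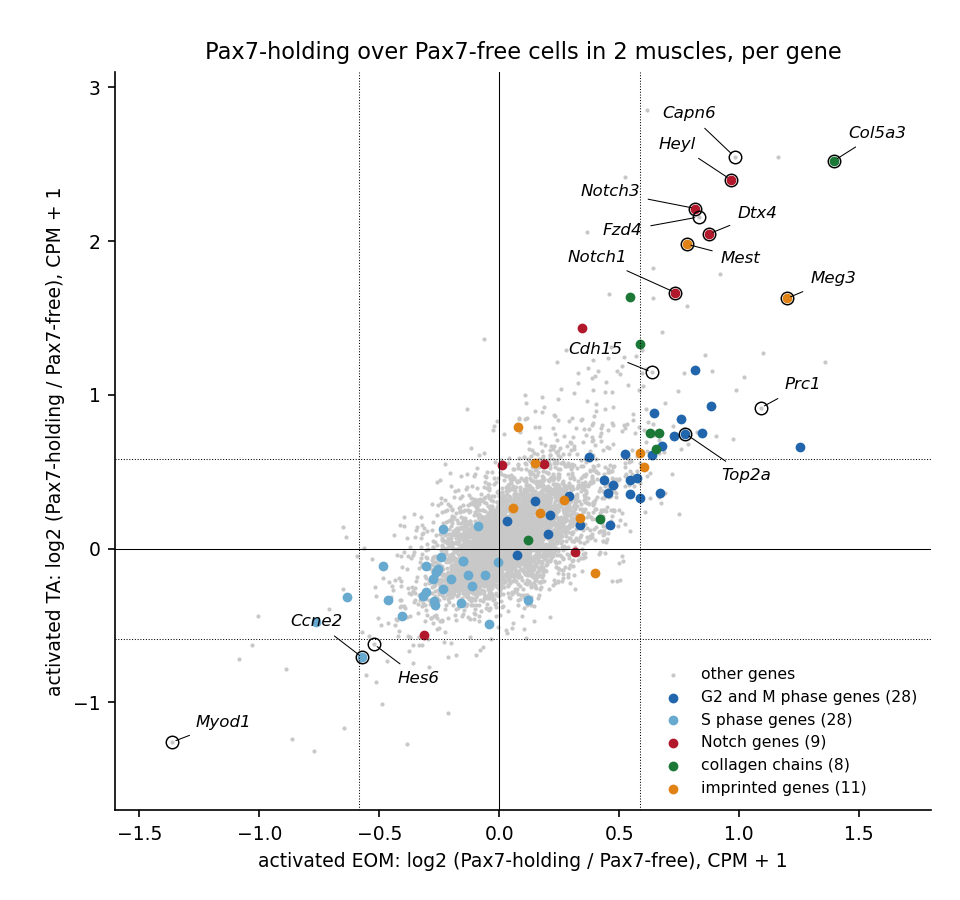
Each point is 1 of the 5020 genes measured in both libraries, by its log2 ratio of Pax7-holding over Pax7-free cells (CPM + 1) in activated EOM (x axis) and activated TA (y axis). Dotted lines mark 1.5-fold, and 5 gene lists are coloured. Myod1 sits at the far lower left, and Heyl, Notch3, Dtx4, Col5a3, Mest and Meg3 sit at the upper right, further along the TA axis than the EOM axis.

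Myod1 ranked first among the lower genes, taking for each gene the muscle in which its ratio was nearer to 1. It stood at 100.04 CPM in Pax7-holding and 259 CPM in Pax7-free EOM cells, 0.39 times as much (0.36 to 0.42). In TA it stood at 399 and 956 CPM, 0.42 times as much (0.39 to 0.44). Both classes of TA cells therefore lay above both classes of EOM cells, and the ratio was much the same in the muscles. Myod1 lies on chromosome 7 at 46376474-46379099 (GRCm38), and Pax7 on chromosome 4 at 139737062-139833528. Per cell, the median Myod1 level was 0.54 per 10000 (quartiles 0 and 1.28) in Pax7-holding EOM cells against 1.12 (0.47 and 3.19) in Pax7-free ones. The TA medians were 2.21 (1.17 and 5.80) and 8.71 (4.89 and 12.9), so the interquartile ranges of the TA classes overlapped only between 4.89 and 5.80. With every cell thinned to 10000 UMIs, 53.3% of Pax7-holding EOM cells had no Myod1 UMI (48.8 to 57.8), against 34.8% of Pax7-free ones (29.5 to 40.4). The TA shares were 19.7% (13.4 to 27.4) and 2.91% (1.08 to 6.23). Without thinning these shares were 32.0% and 19.7% in EOM and 4.38% and 0.971% in TA. No cell type that lacks Myod1 was found in the activated libraries, so the share given by free RNA was not measured.

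Myod1 was lower at each step up in Pax7. In EOM it was 259 CPM without Pax7, 204 CPM in the 1930 cells above 0 and under 2 per 10000, 102 CPM in the 463 cells from 2 to under 4, and 66.1 CPM in the 34 cells at 4 or more. In TA the same classes held 956, 764, 419 and 184 CPM, the last over 12 cells. Quiescent cells held 149 CPM in EOM and 1197 CPM in TA. Every one of these TA classes, Pax7-free cells included, had less Myod1 than the quiescent TA library. In EOM the classes at 2 or more per 10000 lay under the quiescent level, and the others above it.

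Several other genes of muscle or its commitment had ratios under 1, as did Cdkn1a and Gadd45g of the CDK inhibitor and G1 list. That list had no common direction, with 12 of 19 log2 ratios above 0 in EOM and 9 of 18 in TA. By the 1.5-fold limit only Ankrd1 and Rbm24 of those given next were lower in both muscles. Hes6 and Cdkn1a were lower in TA alone, and Chrna1 and Gadd45g in neither. Hes6, which is known to promote myogenic differentiation, stood at 130 and 187 CPM in EOM (0.69 times, 0.64 to 0.75) and at 392 and 604 CPM in TA (0.65 times, 0.61 to 0.69). Chrna1, the acetylcholine receptor alpha subunit, stood at 434 and 616 CPM in EOM and at 654 and 895 CPM in TA, 0.70 and 0.73 times. Ankrd1, a titin-binding ankyrin repeat protein, was lower in both, at 0.54 times (119 against 222 CPM) and 0.58 times (310 against 534 CPM). Rbm24, an RNA-binding protein of muscle splicing, was named after its values were seen. It was lower in both muscles, at 0.58 times in EOM (24.0 against 41.6 CPM) and 0.40 times in TA (41.9 against 106 CPM). Cdkn1a, the cell cycle inhibitor p21, stood at 32.7 and 45.6 CPM in EOM (0.72 times) and at 63.4 and 106 CPM in TA (0.60 times). Gadd45g, a growth arrest gene, stood at 0.74 and 0.67 times. The differentiation list, from which Myog, Mymk and Mymx were left out, had a median log2 ratio of -0.29 over 28 genes in EOM and -0.25 over 29 in TA. All genes with at least 5 CPM had medians of 0.05 and 0.08. In cells with no UMI of Myog, Mymk or Mymx the medians of the differentiation list were near 0, at -0.02 in EOM and -0.046 in TA. With classes called at 10000 UMIs they were -0.11 and -0.087. Of the list's members with at least 20 CPM, 1 of 19 was lower in EOM and 1 of 22 in TA, and none was higher. Over all genes 0.414% and 1.08% were lower, and 1 gene per muscle is not read as a result about the list.

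Most of the other determination genes did not follow Myod1. Myf5, a partner of Myod1 that stem cells also carry, stood at 86.7 and 74.7 CPM in EOM (1.16 times, 1.04 to 1.30) and 202 and 156 CPM in TA (1.30 times, 1.17 to 1.44). At 10000 UMIs it was seen in 54.3% of Pax7-holding and 49.7% of Pax7-free EOM cells, with overlapping intervals (49.8 to 58.8 and 44.0 to 55.4). In TA the shares were 81.0% (73.4 to 87.2) and 66.5% (59.6 to 72.9). Tcf12, a binding partner of Myod1, had ratios of 1.04 and 1.19. Msc (musculin), a repressor that binds the same sites as Myod1, was low but 1.75 times as high in EOM (9.70 against 5.53 CPM) and 3.67 times in TA (29.6 against 8.05 CPM). Mdfic, a relative of the MyoD family inhibitor, was chosen after its values were seen. It was higher in both, at 63.1 and 34.4 CPM in EOM and 41.9 and 16.9 CPM in TA. Over the whole determination list, 0 of 15 members were higher and 1 was lower in EOM, and 1 of 16 was higher and 2 were lower in TA. Over all genes 2.24% were higher and 0.414% lower in EOM, and 4.65% and 1.08% in TA.

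The name reserve cell implies exit from the cell cycle. The levels of Mki67 and Top2a were not lower in the Pax7-holding cells, while S phase genes, given below, mostly were. At 10000 UMIs, Mki67 or Top2a, which cycling cells make, was seen in 95.8% of Pax7-holding EOM cells (93.6 to 97.4) and 96.4% of those of TA (91.7 to 98.8). The Pax7-free shares were 90.6% (86.8 to 93.7) and 92.7% (88.3 to 95.9). Without thinning the 4 shares lay between 96.5% and 99%. At 10000 UMIs, 12 of the 497 Pax7-holding EOM cells, or 2.41% (1.25 to 4.18), had no UMI of Myod1, Mki67 or Top2a. The Pax7-free EOM share was much the same, at 9 of 310, or 2.90% (1.34 to 5.44). Among the 137 Pax7-holding TA cells there were 0, which allows up to 2.66% by the exact interval. Among the 206 Pax7-free TA cells there were also 0. The quiescent libraries held Mki67 at 4.95 and 4.12 CPM, against 273 and 226 CPM in Pax7-holding EOM and TA cells. The share of cells to which free RNA alone gives a UMI of Mki67 or Top2a was not measured, so the shares do not count cycling cells. As a level, Mki67 was 1.8 times (EOM) and 1.69 times (TA) that of Pax7-free cells. The cells are called here by their rule and not as reserve cells.

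Genes of G2 and mitosis were higher in Pax7-holding cells of both muscles. Of 28 such genes, 13 were higher in EOM and 12 in TA, 10 of them in both, and none was lower. The median log2 ratios were 0.55 and 0.45, and 28 and 27 of the 28 ratios lay above 0. These medians depended on depth, and fell to 0.17 in EOM and 0.26 in TA with classes called at 10000 UMIs. When deeper cells were left out, the medians were 0.48 in EOM and 0.28 in TA. Top2a, the topoisomerase that untangles chromosomes, stood at 454 and 265 CPM in EOM (1.71 times, 1.62 to 1.81) and 432 and 257 CPM in TA (1.68 times, 1.56 to 1.81). Prc1, a microtubule bundler of the dividing cell's midzone, stood at 283 and 133 CPM in EOM (2.14 times) and 272 and 144 CPM in TA (1.89 times). Cenpf and Cenpe, proteins of the kinetochore, stood at 301 and 189 CPM in Pax7-holding EOM cells, 1.85 and 1.77 times the Pax7-free level. In TA they stood at 276 and 187 CPM, 1.91 and 2.26 times. Kif11, the motor that separates spindle poles, had ratios of 1.70 and 1.81, and Ube2c, an enzyme of mitotic protein breakdown, 1.56 and 1.52. Cdk1, the mitotic kinase, was closer to even at 1.22 and 1.27 times. Per cell, the summed G2 and M phase genes had a median of 41.2 per 10000 (quartiles 26.9 and 62.4) in Pax7-holding EOM cells and 29.6 (22.8 and 42.1) in Pax7-free ones. The TA medians were 41.0 (28.8 and 60.3) and 30.8 (24.8 and 39.9), so the interquartile ranges overlapped in both muscles.

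Promoters of such genes are known for CCAAT boxes and for the cell cycle homology region (CHR, TTTGAA), an element read by the complexes that time mitotic genes. Top2a, Kif11 and Ube2c, higher in both muscles, are shown for these letters, each as the 100 bases before its start site from RefSeq's table for GRCm38.p6. Capitals mark CCAAT or its other strand ATTGG, and TTTGAA or its other strand TTCAAA. The windows are Top2a (chr11:99024190-99024289, minus strand), Kif11 (chr19:37376282-37376381, plus strand) and Ube2c (chr2:164769829-164769928, plus strand).
Top2a: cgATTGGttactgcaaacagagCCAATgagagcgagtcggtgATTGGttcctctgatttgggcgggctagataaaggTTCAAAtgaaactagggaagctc
Kif11: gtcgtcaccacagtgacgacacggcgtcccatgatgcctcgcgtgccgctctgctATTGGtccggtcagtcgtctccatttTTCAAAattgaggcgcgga
Ube2c: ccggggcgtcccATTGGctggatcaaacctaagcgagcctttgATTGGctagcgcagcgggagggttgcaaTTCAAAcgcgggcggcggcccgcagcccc
These 3 were picked as genes with both elements within the 100 bases. In all 3 the CHR lies between the last CCAAT box and the start site. Other G2 and M phase genes had another order. In Plk1 the CHR letters came after the start site, and in Cdc20 a CCAAT box lay between the CHR and the start site. Of the 28 listed genes 24 had a promoter in the table, from 250 bases before to 50 after the start. Within it 17 held the CHR letters, 19 the CCAAT letters and 16 both. Among all 32851 promoters of that length, 17.9% held the CHR letters and 37.4% the CCAAT letters, on either strand. A match of letters is a description and was not measured as a bound site.

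S phase genes were on the other side. Their median log2 ratios were -0.25 in EOM and -0.22 in TA, and only 1 and 2 of 28 ratios lay above 0. By the 1.5-fold limit 3 were lower in EOM and 1 in TA. Ccne2, the cyclin that starts DNA replication with Cdk2, was lower in both, at 22.1 and 33.3 CPM in EOM (0.66 times, 0.55 to 0.80) and 30.1 and 49.8 CPM in TA (0.61 times, 0.48 to 0.76). In the 25 and 27 TA cells with no UMI of Myog, Mymk or Mymx its log2 ratio was 0.12. Cdc6, which loads the replication helicase, stood at 24.5 and 38.6 CPM in EOM (0.64 times) and at 30.4 and 38.0 CPM in TA (0.80 times). Pcna, the replication clamp, had ratios of 0.80 and 0.81. Per cell, summed S phase genes had medians of 25.2 and 29.6 per 10000 in EOM and 31.3 and 36.6 in TA, again with overlapping interquartile ranges.

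CDK inhibitors and G1 genes showed no common direction, with median log2 ratios of 0.10 and 0.01. Ccnd1, a cyclin of G1, had ratios of 0.92 in both muscles. Cdkn1c (p57), which stops the cycle, stood at 73.7 and 45 CPM in EOM (1.64 times, 1.43 to 1.88) but at 7.18 and 6.4 CPM in TA, where the interval of the ratio spanned 1 (0.63 to 1.96). Cdkn1b (p27) had ratios of 1.37 and 1.28, and Ccnd2, another G1 cyclin, 1.13 and 1.66.

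**Figure D2:**
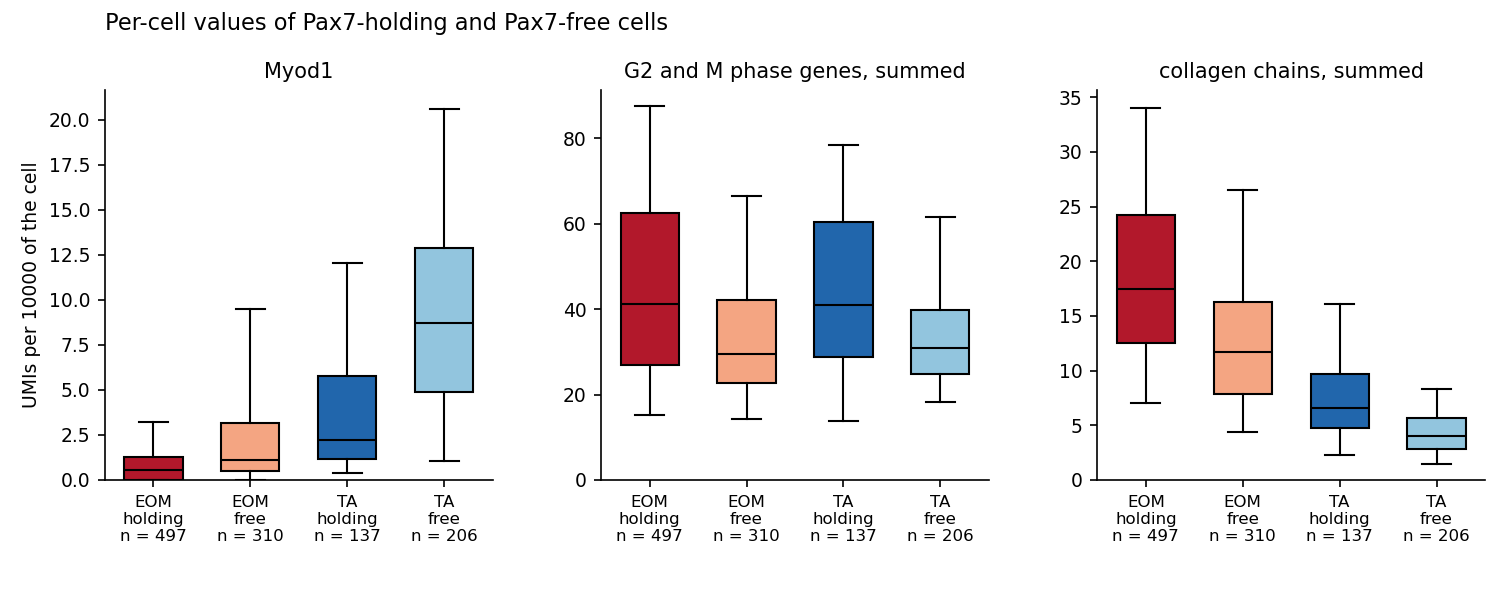
Box plots of per-cell levels (UMIs per 10000 of the cell) of Myod1, of the 28 G2 and M phase genes summed and of the collagen chains summed, in the 4 classes. Boxes span the quartiles with the median as a line, and whiskers reach the 5th and 95th percentiles. Myod1 is lower and the summed lists are higher in Pax7-holding cells of each muscle, with boxes that overlap.

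Because the classes differed in these cell cycle genes, the ratios were also taken in cells with fewer and with more G2 and M phase UMIs, a split chosen after the data were seen that narrows the difference and does not match the classes. Undifferentiated cells were divided at their library's median of summed G2 and M phase UMIs. Below it were 205 Pax7-holding and 198 Pax7-free EOM cells, and 53 and 125 TA cells. At or above it were 292 and 112 in EOM and 84 and 81 in TA. The G2 and M phase list then had medians of 0.04 and 0.26 in the lower and upper EOM cells, and 0.01 and 0.25 in TA. Myod1 had log2 ratios of -1.32 and -1.55 in EOM and -1.24 and -1.42 in TA. Heyl had log2 ratios of 1.20 and 0.63 in EOM and 2.54 and 2.32 in TA. The collagen list had medians of 0.55 and 0.69 in EOM and 0.75 and 0.79 in TA. The list medians follow from the split, which used the same genes, and the upper parts still differed in them. Myod1, Heyl and the collagen median had the same direction in both parts of the split.

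The receptors Notch1 and Notch3 and the target Heyl were higher in Pax7-holding cells of both muscles. Heyl, a repressor switched on by Notch, stood at 55.5 CPM in Pax7-holding and 28 CPM in Pax7-free EOM cells (1.99 times, 1.68 to 2.36). In TA it stood at 46.8 and 8.05 CPM (5.81 times, 4.08 to 8.47). The Pax7-holding classes of the muscles were thus close to each other, and the Pax7-free classes far apart. At 10000 UMIs Heyl was seen in 40.6% of Pax7-holding and 24.2% of Pax7-free EOM cells, and in 32.1% and 6.31% of TA cells. Without thinning the shares were 63.4%, 36.5%, 56.2% and 14.1%. The share of cells to which free RNA alone gives a Heyl UMI was not measured.

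Of the receptors, Notch3 stood at 61.4 and 34.4 CPM in EOM (1.78 times, 1.53 to 2.08) and 47.6 and 9.50 CPM in TA (5.02 times, 3.60 to 7.11). Notch1 stood at 50.5 and 30.0 CPM in EOM (1.69 times, 1.43 to 1.99) and 42.8 and 12.8 CPM in TA (3.34 times, 2.47 to 4.57). Notch2 was low in every class, at 9.53 CPM or less. Dtx4, a Deltex ubiquitin ligase of the pathway, had ratios of 1.87 (38.3 against 20.4 CPM) and 4.57 (33.0 against 7.23 CPM). Of the 9 Notch genes measured in both muscles, Heyl, Notch1, Notch3 and Dtx4 were higher in both, and none was lower in EOM or TA by the 1.5-fold limit.

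The remaining targets were less even. Hey1, a relative of Heyl, had a ratio of 1.28 in EOM (47.7 against 37.3 CPM) and 2.86 in TA (30.1 against 10.5 CPM). Hes1, the target shared by many cell types, was even in EOM (67.1 against 66.5 CPM) and 1.47 times as high in TA (83.0 against 56.6 CPM). Nrarp, a feedback inhibitor, was low, at 9.18 and 4.46 CPM in EOM and 6.03 and 1.03 CPM in TA. Rbpj, the DNA-binding partner of the receptors, went the other way, with ratios of 0.80 (0.69 to 0.92) and 0.67 (0.55 to 0.83). The ligand Jag2 stood at 9.70 and 11.7 CPM in EOM and 15.5 and 21.3 CPM in TA. Over the whole list the medians were 0.35 for 17 genes in EOM and 0.25 for 18 in TA.

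The stem cell list without Pax7 had median log2 ratios of 0.26 over 24 genes and 0.37 over 25. Of 20 members with at least 20 CPM in each muscle, 5 were higher in EOM and 6 in TA, with none lower. Heyl, Notch3, Cdh15 and Dag1 were higher in both, Spry1 in EOM alone by this limit, and Hey1 and Gpx3 in TA. Cdh15 (M-cadherin), the adhesion protein between muscle stem cells and fibres, stood at 263 and 169 CPM in EOM (1.56 times, 1.45 to 1.67) and 215 and 96.7 CPM in TA (2.23 times, 1.98 to 2.50). Dag1 (dystroglycan), a laminin receptor, stood at 142 and 94.5 CPM in EOM and 145 and 70.6 CPM in TA, 1.5 and 2.06 times. Spry1, an inhibitor of receptor tyrosine kinase signalling and one of the marker genes of these cells, had a ratio of 1.69 in EOM (23.7 against 14 CPM, 1.33 to 2.17). In TA it stood at 12.1 and 10.7 CPM, and the interval spanned 1 (0.73 to 1.72). Vcam1, an adhesion receptor, had ratios of 1.15 and 1.01, and Sdc4 (syndecan-4) of 0.92 and 1.0. EGFP, the reporter used for the sort, stood at 36.1 and 22 CPM in EOM (1.64 times, 1.36 to 2.00) and 43.6 and 22.1 CPM in TA (1.97 times, 1.53 to 2.55).

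Several genes of quiescence stood far under their quiescent levels. Spry1 stood at 190 and 228 CPM in the quiescent EOM and TA libraries, so that Pax7-holding cells had a small part of it. Sdc4 stood at 63.5 and 75.5 CPM in Pax7-holding cells against 1756 and 2479 CPM in quiescence. Gpx3, a secreted glutathione peroxidase, stood at 61.8 and 23.3 CPM against 1957 and 1951 CPM, although in TA it was 2.12 times the Pax7-free level. Apoe, the lipid carrier, was at 5.20 and 3.73 CPM against 2932 and 1846 CPM. Heyl, by contrast, had 55.5 and 46.8 CPM beside 71.7 and 48.2 CPM in quiescence, and Cdh15 and Mest exceeded the quiescent level. Quiescent cells had medians of 4683 (EOM) and 5075 (TA) UMIs, and their depth and composition differ from those of activated cells.

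**Figure D3:**
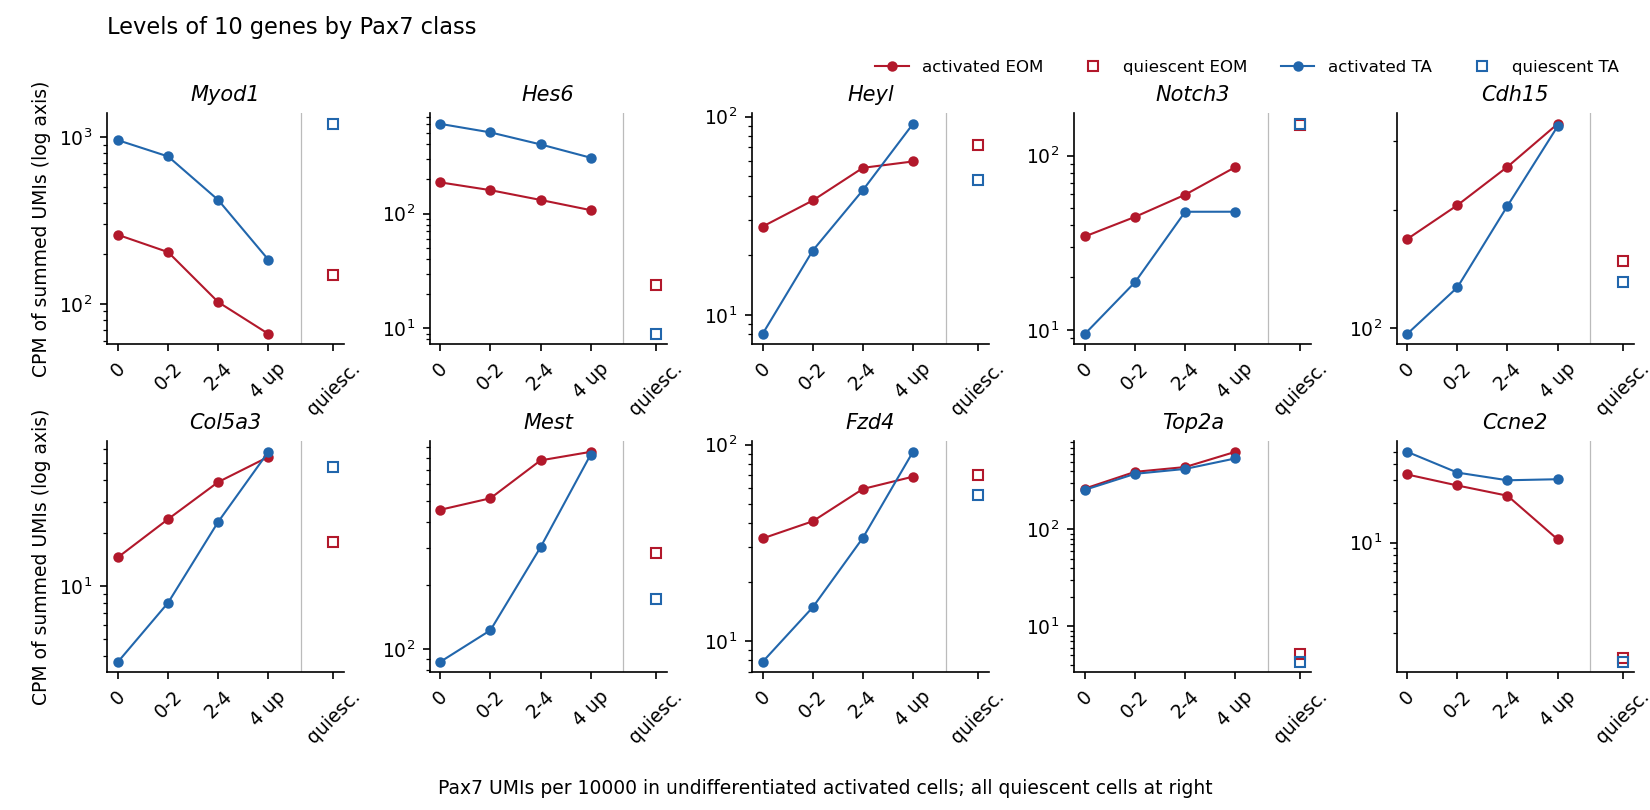
CPM on a log axis of 10 genes in undifferentiated activated cells by Pax7 class (UMIs per 10000: 0, above 0 and under 2, 2 to under 4, 4 or more), with the quiescent library of each muscle as open squares. The 4 classes hold 310, 1930, 463 and 34 EOM cells (red) and 206, 897, 125 and 12 TA cells (blue). Myod1 and Hes6 decline from left to right, Heyl, Cdh15, Col5a3, Mest and Fzd4 climb in both muscles, and Top2a is far above quiescence in every class.

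Collagen chains had the highest median of the 10 lists plotted, 0.66 over 15 genes in EOM and 0.75 over 14 in TA. Of those with at least 20 CPM, 8 of 12 were higher in EOM and 6 of 8 in TA, and 5 were higher in both. Col5a3, a chain of fibril-nucleating type V collagen that muscle stem cells make under Notch control, had the highest ratio of the named collagens. It stood at 40.0 and 14.6 CPM in EOM (2.74 times, 2.20 to 3.46) and 26.1 and 3.72 CPM in TA (7.03 times, 4.21 to 12.4). Col5a1, its partner chain, stood at 72.4 and 47.9 CPM in EOM and 38.5 and 14.7 CPM in TA, 1.51 and 2.62 times. The basement membrane chains Col4a1 and Col4a2 had ratios of 1.55 and 1.60 in EOM and 1.69 and 1.71 in TA. Col3a1, a fibrillar chain, had 1.58 in both. Col1a2, a chain of type I collagen, had 1.46 in EOM (924 against 634 CPM) and 3.15 in TA (205 against 65 CPM). Per cell, summed collagens had medians of 17.5 per 10000 (quartiles 12.5 and 24.3) and 11.7 (7.90 and 16.3) in EOM, and 6.56 (4.71 and 9.69) and 3.99 (2.82 and 5.68) in TA.

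Col1a1 and Col3a1 are also fibroblast markers, and the 8 fibroblast markers summed to 165 and 111 CPM in EOM and 130 and 90.7 CPM in TA. Of the 8, 4 were at 0 in both EOM classes, and 3 and 2 in the TA classes. Pdgfra, Dcn, Lum, Dpt and Mfap5 were under 5 CPM in every class. The 8 mural markers, Notch3 among them, summed to 1364 and 1373 CPM in EOM and 1041 and 661 CPM in TA, nearly all of it Acta2 (1221, 1293, 980 and 643 CPM). Rgs5, Kcnj8, Abcc9 and Myh11, which mark mural cells, were under 5 CPM in every class. Pdgfrb and Cspg4, also on the mural list, are not covered by that statement. Of the mural markers with at least 20 CPM, 2 of 3 were higher in Pax7-holding cells in EOM and 2 of 2 in TA. None of them was lower by the 1.5-fold limit. The 5 tenocyte markers summed to 22.7 and 28.3 CPM in EOM and 52.8 and 105 CPM in TA, most of it the tendon factor Scx (18.5 against 26.4 CPM in EOM, 51.1 against 104 CPM in TA). The part of such cells in the collagen and Notch3 ratios was not tested.

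Other matrix genes mostly had ratios above 1 in both muscles, and more of them passed the 1.5-fold limit in TA. For matrix glycoproteins 28 of 32 log2 ratios lay above 0 in EOM and 24 of 30 in TA. Of the matrix glycoproteins, 2 of 25 were higher in EOM and 8 of 18 in TA, with medians of 0.24 and 0.31. Over all genes 2.24% were higher in EOM and 4.65% in TA. Islr, a secreted leucine-rich repeat protein, stood at 229 and 149 CPM in EOM (1.53 times) and 64.3 and 8.05 CPM in TA (7.98 times, 5.66 to 11.5). Mgp, the matrix Gla protein that binds calcium, stood at 632 and 440 CPM in EOM (1.44 times) and 101 and 18.2 CPM in TA (5.58 times, 4.40 to 7.12). The TA value of Mgp rested on few cells, since 5 cells held 35.7% of its UMIs. Among the 25 and 27 TA cells with no UMI of Myog, Mymk or Mymx, the log2 ratio of Mgp was -0.28 and the matrix glycoprotein median -0.15. Loxl1, which cross-links elastin and collagen, had ratios of 1.52 and 2.53. Fzd4, a Wnt receptor, had ratios of 1.8 (60.1 against 33.3 CPM) and 4.90 (38.5 against 7.85 CPM).

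Among imprinted genes 5 of 14 were higher in EOM and 4 of 11 in TA, 3 of them in both, with medians of 0.20 and 0.29. Mest, an alpha/beta hydrolase gene expressed from the paternal copy, stood at 782 and 454 CPM in EOM (1.72 times, 1.65 to 1.79) and 347 and 87.2 CPM in TA (3.98 times, 3.56 to 4.46). Meg3, a maternally expressed non-coding RNA, stood at 138 and 59.8 CPM in EOM and 49.95 and 15.5 CPM in TA, 2.32 and 3.22 times. In TA 5 cells held 42.5% of the Meg3 UMIs of Pax7-holding cells. In the TA cells under the cycle median, 53 against 125, its log2 ratio was -0.92. Both muscles were far under the quiescent Meg3 level of 3750 and 3026 CPM. Slc38a4, an amino acid transporter, had ratios of 1.51 and 1.58, the latter at a log2 ratio of -0.51 in the TA cells with no UMI of Myog, Mymk or Mymx. H19 and Peg3, the most abundant of the list, were close to even at 1.12 and 1.04 times in EOM and 1.18 and 1.20 times in TA.

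**Figure D4:**
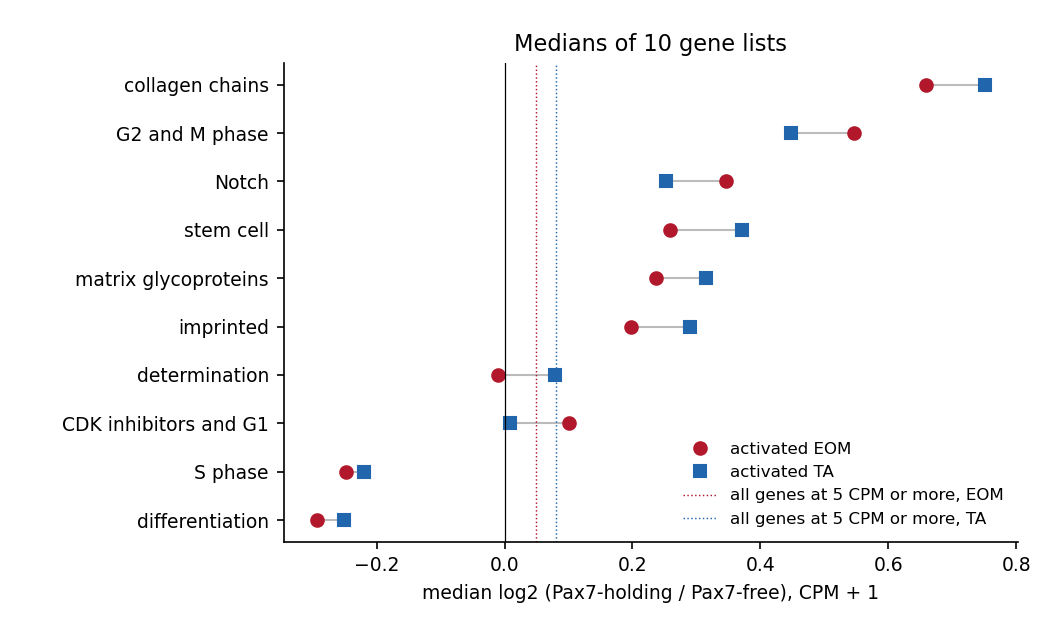
Median log2 ratio of Pax7-holding over Pax7-free cells (CPM + 1) of 10 gene lists in activated EOM (circles) and activated TA (squares), over members with at least 5 CPM. Dotted lines mark the medians of all such genes, 0.05 and 0.08. Collagens and G2 and M phase genes lie furthest right, and S phase and differentiation genes lie left of 0 in both muscles.

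The muscles differed in how far the classes stood apart. Of the 68 genes higher in both, 53 had the larger ratio in TA, with medians of 1.67 times in EOM and 1.92 times in TA. The ratios of 95 of the 5020 genes were 1.5-fold apart between the muscles (1.89%). Capn6, a calpain-like protein without protease activity, had ratios of 1.98 in EOM (164 against 82.6 CPM) and 6.4 in TA (56.8 against 8.88 CPM). Islr, Mgp, Mest, Col1a2 and Ralgps2 were the others named by rule for a larger ratio in TA. The 6 genes named by rule for a larger ratio in EOM were within 1.5-fold in each muscle. Of these, Wisp1, a secreted CCN family protein, had ratios of 1.36 in EOM and 0.98 in TA, and Thbs1 (thrombospondin-1) 1.04 and 0.70.

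Pax7-holding cells of EOM and TA themselves differed in 301 genes higher (5.44%) and 203 genes lower (3.67%) in EOM, of 5537. Over the 5020 genes above, 294 were 1.5-fold apart between the muscles in Pax7-holding cells (5.86%) and 421 in Pax7-free cells (8.39%). The classes hold different numbers of cells, and the difference of these counts was not tested. For Heyl the EOM to TA ratio was 1.19 (1.0 to 1.42) among Pax7-holding and 3.47 among Pax7-free cells. Notch3 had 1.29 and 3.62, Notch1 1.18 and 2.34, Fzd4 1.56 and 4.25, Mest 2.26 and 5.21, Capn6 2.89 and 9.31, and Mgp 6.24 and 24.2. These genes were already given for a larger ratio in TA, so the smaller gap between muscles in the Pax7-holding class is the same difference seen the other way. Myod1 had EOM to TA ratios of 0.25 (0.23 to 0.27) and 0.27, and Hes6 of 0.33 and 0.31. Cdkn1c had 10.3 (6.91 to 16.0) and 7.03, so that it separated the muscles in both classes.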

How the data were processed

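Per the submitters' processing notes, the deposited values are UMI counts from Cell Ranger 3.0.2 on the mm10 build, 1 per gene and barcode in each of 4 libraries. No source used here gives the annotation release, how barcodes were called as cells, or whether doublets were taken out before deposit. The members and the gene lists were chosen with earlier results of these data known.

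Counts were read with pandas 2.3.3 into scipy 1.17.1 sparse matrices and summed over the cells of each class. CPM ratios have exact 95% intervals for a ratio of Poisson rates. A class with 0 UMIs of a gene was set at 3 counts. Log2 ratios add 1 CPM. Lists were summarised over members with at least 5 CPM. For shares of cells, each cell was thinned to 10000 UMIs without replacement, with exact Clopper-Pearson intervals. PCR duplicates were collapsed by UMI, so intervals cover counting error only. Quiescent cells needed 500 genes and at most 10% mitochondrial UMIs. Doublets were kept, and the highest Scrublet scores (scanpy 1.11.5, 0.8% per 1000 barcodes) were left out as an alternative. The sums and intervals were tested on simulated counts drawn from Poisson rates, the model the intervals assume. The simulation had no spread between cells, so it cannot show how the intervals fare under such spread.

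Named genes had at least 50 CPM in the higher class of both libraries and one direction. They were those with the largest and smallest ratios, ranked by the muscle nearer to 1. Added to these were up to 4 members per list 1.5-fold apart in both, members of the stem cell, determination, Notch and CDK inhibitor lists, the genes of the shares, and those differing most between muscles. Some genes are given outside this rule, among them Ube2c, Cdk1, Cdc6, Pcna, Col5a1, H19, Peg3, Apoe, Nrarp, Notch2, Hoxc10 and the cell type markers. Pax7, Myog, Mymk and Mymx were left out of counts and lists. Values of a few single genes are left out here, although the counts include them. Positions come from GENCODE vM21. Alternatives covered scaling (edgeR 4.0.16 TMM factors), filters, fold limit, cell weights, depth, class limits, cell cycle and doublets.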

Additional observations from a re-analysis of the deposited data

Results flagged for a closer look

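Pax7 at 2 or more per 10000 also occurred in cells that the limit on Myog, Mymk and Mymx left out of every comparison. In activated EOM these were 36 of 2906 cells, or 1.24% (exact 95% interval 0.869 to 1.71), and in activated TA 53 of 3055, or 1.73% (1.30 to 2.26). They are given because the comparisons did not use them and their share is above what a count of 0 would allow. That is a low bar, since all cells above the limit on Myog, Mymk and Mymx together held Pax7 at 31.6 CPM in EOM and 35.8 CPM in TA. Their Myog stood at 496 CPM in EOM and 440 CPM in TA, against 2814 and 2184 CPM over all cells above the limit. Their Myod1 stood at 238 and 773 CPM, against 1088 and 1375 CPM, and their Heyl at 55.8 and 66.3 CPM, against 14.4 and 10.8 CPM. Top2a stood at 402 and 486 CPM, against 297 and 309 CPM. Doublets of a Pax7-holding and a differentiating cell were kept in these numbers, and their part was not tested.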

How the results depend on the processing

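Each class came from 1 library, so sample-level spread is unknown and the alternatives show only how the counts move with the rules. No paired analysis was possible because each group had 1 library and all libraries carry the number 1. The counts of genes higher and lower, 119 and 22 in EOM and 249 and 58 in TA, depended on the filter and the fold. They became 1400 and 667 in EOM and 1683 and 689 in TA with no filter, 50 and 6, and 70 and 18, at 50 CPM or more, and 13 and 4, and 69 and 15, at 2-fold. They also moved with the class limits. Classes called at 10000 UMIs gave 15 and 2 in EOM and 76 and 25 in TA, over larger classes (902 and 972 cells in EOM). Any Pax7 UMI against none gave 18 and 2, and 42 and 8. Pax7 at 4 or more per 10000 gave 610 and 222 in EOM, over 34 cells. Cells with no UMI of Myog, Mymk or Mymx gave 239 and 86 in EOM, and 864 and 433 in TA over 25 and 27 cells. The 21 and 29 EOM cells without Mki67 or Top2a gave 903 and 689. TMM factors moved the TA genes lower to 92. At the cycle split chosen after the data were seen, cells at or above the median gave 54 lower in EOM, and 379 higher and 101 lower in TA, and TA cells under it gave 150 lower. Genes with EOM and TA ratios 1.5-fold apart, 95, became 146 when deeper cells were left out and 1026 with no UMI of Myog, Mymk or Mymx. Under the latter, Pax7-holding cells differed between muscles in 544 genes higher and 671 lower in EOM. The cause of these moves was not tested, apart from the fewer cells or genes each rule leaves.

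Over all alternatives run, the list medians of at least 0.2 in size (log2) and the genes 1.5-fold apart reported here reversed only in 3 subsets. Their size was less stable than their sign. With classes called at 10000 UMIs the collagen medians were 0.39 in EOM and 0.46 in TA, and the Notch medians 0.19 and 0.22. At 4 or more Pax7 per 10000 the EOM medians were larger, at 1.15 for collagens and 0.63 for Notch. The CDK inhibitor and G1 medians lay near 0 and changed sign, to -0.021 in EOM with classes called at 10000 UMIs, and in TA to -0.097 with TMM factors, -0.055 with classes called at 10000 UMIs, -0.11 with no UMI of Myog, Mymk or Mymx, -0.019 in cells with Mki67 or Top2a and -0.022 under the cycle median. The determination median, also near 0, changed sign too. In EOM cells without Mki67 or Top2a, a rule that itself selects on cycle genes, log2 ratios were -0.15 for the G2 and M phase median, -0.60 for Cenpe, -0.57 for Cenpf, -0.11 for Col4a2, -0.10 for Dag1, -0.23 for Kif20b, -0.70 for Kif23, -1.51 for Prc1, -2.36 for Top2a and -0.035 for Tpx2. In TA cells with no UMI of Myog, Mymk or Mymx they were -0.15 for the matrix glycoprotein median, -0.11 for Btg2, -0.34 for Ccnd2, 0.12 for Ccne2, -0.0036 for Cdkn2d, -0.28 for Mgp and -0.51 for Slc38a4. In TA cells under the cycle median they were -0.22 for Cdkn2d, -0.22 for Cenpf, -0.13 for Kif23 and -0.92 for Meg3. Other alternatives were not run because they left under 20 cells in a class, a limit set after the data were seen: TA at 4 or more Pax7 per 10000 (12 cells) and TA without Mki67 or Top2a (5 and 15 cells, with Myod1 at 715 and 677 CPM). Depth limits genes under 20 CPM most, among those named Nrarp in both muscles, Msc in EOM and Spry1 in TA.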

Other observations

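A pair of genes that record body position did not follow Pax7. Hoxc10, a gene of limb and posterior trunk muscle, stood at 57.7 CPM in Pax7-holding and 57.2 CPM in Pax7-free TA cells, and no UMI of it was seen in either EOM class, where 3 counts correspond to 0.260 and 0.461 CPM. Lbx1, a factor of migrating limb muscle precursors, stood at 26.7 and 25 CPM in TA and had no UMI in the Pax7-holding and Pax7-free EOM classes.

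Egfr, Wisp2 and Sct are not covered by the rule for naming and were chosen after their values were seen. Egfr, the epidermal growth factor receptor, stood at 10.3 and 4.92 CPM in EOM and 8.90 and 1.45 CPM in TA, beside 77.1 and 88.2 CPM in the quiescent libraries. Wisp2, a CCN family secreted protein, stood at 92.9 and 41.0 CPM in EOM and 29.0 and 4.13 CPM in TA. Sct, the precursor of the hormone secretin, was lower in Pax7-holding cells of both muscles, at 17.1 and 37.3 CPM in EOM and 214 and 353 CPM in TA, with 0.054 and 0.24 CPM in quiescence.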
